A study of Rattus norvegicus with 4 samples.

Results

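The ligands of the epidermal growth factor (EGF) family and their ErbB receptors were examined in rat L6 myoblasts as 10 genes, of 14217 genes measured. These were the 6 ligand genes Tgfa, Hbegf, Areg, Ereg, Btc and Nrg1, the 3 receptor genes Egfr, Erbb2 and Erbb3, and Errfi1, which encodes an intracellular inhibitor of the receptors. They were chosen by family, with earlier results of these data known. They were read from 20 of 31042 probe sets, namely those whose only gene symbol in the array annotation was that of a member. All 10 genes had at least 1 probe set. A gene is given as the mean of its probe sets.

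Total RNA came from 4 cultures of L6, a myoblast line from rat skeletal muscle for which the labels give the Wistar strain, and was hybridized to 4 Affymetrix rat genome arrays, 1 for each culture. The cultures were an L6-HGF sheet, an L6-WT sheet, an L6-HGF monolayer culture and an L6-WT monolayer culture. L6-HGF cells expressed the human hepatocyte growth factor gene constitutively from the pBabepuro retroviral vector and had been selected with puromycin, whereas L6-WT cells were wild type. The methods describe no cells with an empty vector, and do not say whether L6-HGF is a clone, so the growth factor cannot be told apart from the vector and the selection. Sheets were made by plating myoblasts densely on thermoreactive dishes, from which they come off intact at room temperature, so format also holds density and dish.

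EGF family ligands are made as membrane-anchored precursors, and metalloproteases of the ADAM family cut them free. Tgfa and Areg products bind EGFR (ErbB1), those of Hbegf, Ereg and Btc bind EGFR and ErbB4, and the neuregulins of Nrg1 bind ErbB3 and ErbB4. ErbB2 has no known ligand of its own and acts as a partner of the other receptors, and ErbB3 has little kinase activity and depends on such a partner. The receptors signal through the RAS-MAPK and PI3K-AKT pathways, and in skeletal muscle neuregulin and ErbB signalling is known for its part at the neuromuscular junction and in muscle spindles.

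The deposited values are log2 values from RMA in which the median of each probe set over the 4 arrays is 0. A centred value is therefore the distance of a culture from that median, and says nothing of how strongly a gene is expressed. Dim and bright probe sets could not be separated, levels of different genes could not be ranked, and it could not be checked whether a marker of another cell type was absent. With 1 array a culture there is no replicate error. As a guide to technical spread, 45 bacterial control probe sets had an SD (log2) of 0.22 for the L6-HGF sheet minus the L6-WT sheet, 0.12 for the L6-HGF monolayer minus the L6-WT monolayer, 0.16 for sheet minus monolayer in L6-HGF and 0.18 for the same in L6-WT. The mean difference of these controls was 0.0058, 0.09, 0.12 and 0.20 in the same order, so they were shifted upward most for sheet minus monolayer. The median difference over all genes lay between -0.02 and 0.03 in these comparisons. Cell type markers were read as differences alone. Of 7 measured myoblast markers, none differed by more than 2-fold between any pair of cultures compared. Between the sheets Myog was lower in L6-HGF than in L6-WT (-0.78, log2) and Des higher (0.76), both past 1.5-fold. The median over the 7 was -0.07 in sheets, where 4 were lower in L6-HGF, and -0.18 in monolayers, where 6 were lower. All 6 fibroblast markers were lower in the L6-HGF sheet than in the L6-WT sheet, with a median of -0.60 (log2). In monolayers 5 of the 6 were lower in L6-HGF than in L6-WT, Dpt by the most (-1.23). In sheets as compared to monolayers, the fibroblast markers Dpt and Lum were past 2-fold higher in both cell lines, Dpt with 3.48 in L6-HGF and 3.34 in L6-WT, and Lum with 1.04 and 2.07, and the median over the 6 was -0.33 and -0.05. The signal at the 3′ end less that at the 5′ end, a sign of RNA quality, differed between the 4 arrays by at most 0.23 (log2) for beta-actin and 0.10 for GAPDH. The part of either in the results was not tested.

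Tgfa, the transforming growth factor alpha gene, had a centred value (log2) of 1.12 in L6-HGF sheets and -0.03 in L6-WT sheets, and of -0.14 in L6-HGF monolayers and 0.03 in L6-WT monolayers. The L6-HGF sheet was thus apart from the other cultures, which lay within 0.17 of each other. Tgfa was 2.22-fold higher in the L6-HGF sheet than in the L6-WT sheet (1.15 on the log2 scale), the only member past 2-fold there, where 1.44% of all genes were past 2-fold in either direction. Within L6-HGF, Tgfa was 2.39-fold higher in the sheet than in the monolayer, again the only member past 2-fold, against 3.75% of all genes. By size of the difference it ranked 136 of 14217 genes between the sheets and 323 between the L6-HGF sheet and monolayer. Between L6-HGF and L6-WT monolayers its difference was -0.17, and between L6-WT sheets and monolayers -0.06. When the centred values were quantile normalized between arrays, the same differences of Tgfa were 0.90 between the sheets and 0.99 within L6-HGF, both within 2-fold. That step gives all arrays the same distribution of centred values, and its effect was not particular to Tgfa. Genes past 2-fold fell from 205 to 94 between the sheets and from 533 to 394 within L6-HGF. They rose from 76 to 105 between the monolayers and from 172 to 243 within L6-WT.

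**Figure D1:**
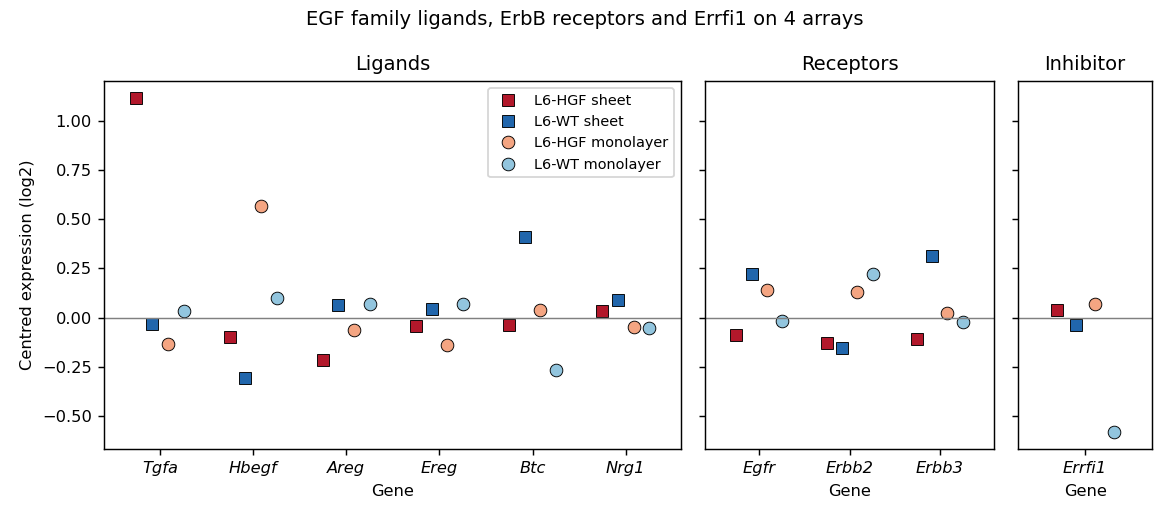
Centred log2 expression (vertical axis) of each ligand, receptor and inhibitor gene on the arrays of L6-HGF sheets, L6-WT sheets, L6-HGF monolayers and L6-WT monolayers, 1 point per array. Tgfa in the L6-HGF sheet, at 1.12, is the point farthest from 0, followed by Errfi1 in the L6-WT monolayer at -0.58 and Hbegf in the L6-HGF monolayer at 0.57.

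Tgfa was read by 2 probe sets. The values of 1381449_s_at were 1.36 in L6-HGF sheets and 0.05 in L6-WT sheets, and -0.10 in L6-HGF monolayers and -0.05 in L6-WT monolayers. Those of 1387450_at were 0.88 and -0.11 in L6-HGF and L6-WT sheets, and -0.17 and 0.11 in L6-HGF and L6-WT monolayers. On both probe sets the L6-HGF sheet was the highest culture by a wide gap. For the sheets, L6-HGF minus L6-WT was 1.31 with 1381449_s_at and 0.99 with 1387450_at, so that 1387450_at lay just within 2-fold. Probe sets with the suffix _s_at may match more than 1 transcript.

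**Figure D2:**
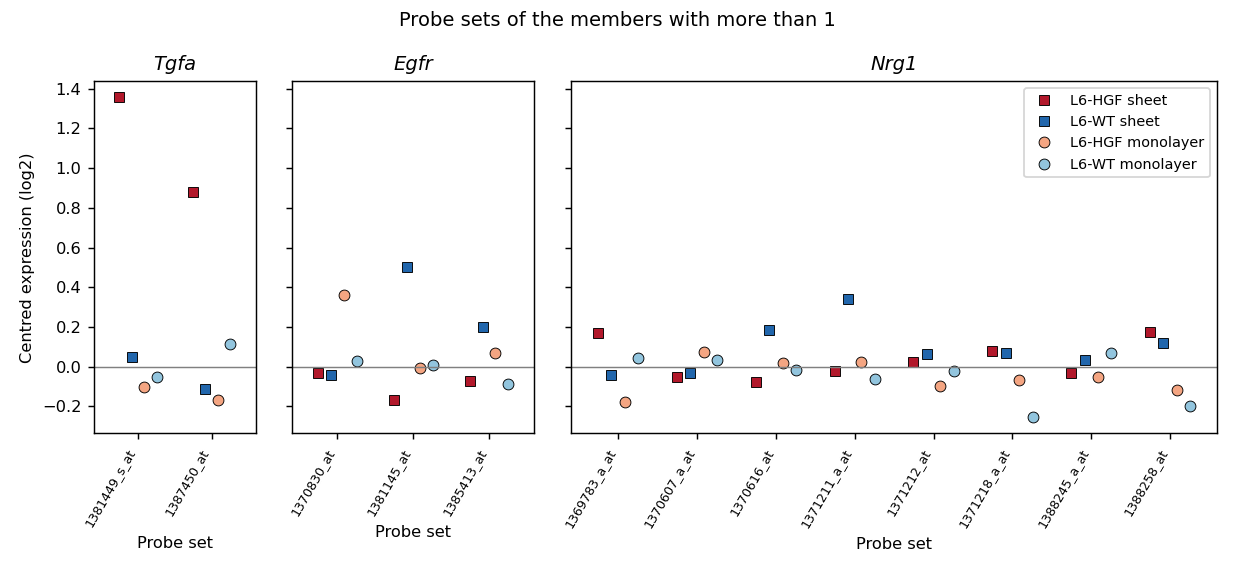
Centred log2 expression (vertical axis) on the 4 arrays for each probe set (horizontal axis) of Tgfa, Egfr and Nrg1, 1 point per array. Both Tgfa probe sets are highest in the L6-HGF sheet, at 1.36 and 0.88, whereas the 8 probe sets of Nrg1 all lie between -0.26 and 0.34.

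Over the 4 arrays, the genes with the pattern most like that of Tgfa were Bhlhe40, which encodes a transcriptional repressor of the circadian clock, Slc19a2, which encodes a thiamine transporter, and Sert1. Likeness was measured as the Euclidean distance between the 4 centred values, which was 0.12 for Bhlhe40, 0.20 for Slc19a2 and 0.20 for Sert1. Bhlhe40 had 1.12 in L6-HGF sheets and -0.02 in L6-WT sheets, and -0.01 in L6-HGF monolayers and 0.01 in L6-WT monolayers. Each of the 3 was high in the L6-HGF sheet alone, at 1.02 for Slc19a2 and 1.13 for Sert1. This follows from their choice by closeness to the values of Tgfa. Such a match rests on 4 values per gene.

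Hbegf encodes heparin-binding EGF-like growth factor. It had -0.10 in L6-HGF sheets and -0.31 in L6-WT sheets, and 0.57 in L6-HGF monolayers and 0.10 in L6-WT monolayers, from 1 probe set. Both sheets were below both monolayers, and in each format L6-HGF was above L6-WT. The L6-HGF minus L6-WT difference was 0.21 in sheets and 0.47 in monolayers, that is 1.15-fold and 1.38-fold. That in sheets was within 1 SD of the bacterial control probe sets, 0.22. That in monolayers was past the largest of them, 0.35. The sheet minus monolayer difference was -0.67 (log2) in L6-HGF, that is 1.59-fold lower in the sheet, and -0.41 in L6-WT. A limma model over all 4 arrays had a term for cells and a term for format. It gave Hbegf a sheet effect of -0.54 ± 0.12 (SE), with an unadjusted limma p of 0.00968 and an adjusted p of 0.131. Each gene had 1 residual degree of freedom, and the SE and p used a variance that limma moderated across genes.

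The 3 remaining EGFR ligands stayed within 2-fold. Btc, the betacellulin gene, had -0.04 in L6-HGF sheets and 0.41 in L6-WT sheets, and 0.04 in L6-HGF monolayers and -0.26 in L6-WT monolayers. The 2 L6-HGF cultures lay between the 2 L6-WT cultures, which were the highest and the lowest. Btc was 1.60-fold higher in the L6-WT sheet than in the L6-WT monolayer (0.68 on the log2 scale), and the same difference in L6-HGF was -0.08. Areg, the amphiregulin gene, had -0.21 in L6-HGF sheets and 0.06 in L6-WT sheets, and -0.06 in L6-HGF monolayers and 0.07 in L6-WT monolayers. Ereg, the epiregulin gene, had -0.04 and 0.04 in L6-HGF and L6-WT sheets, and -0.14 and 0.07 in L6-HGF and L6-WT monolayers. Both genes had lower values in L6-HGF than in L6-WT in each format. The differences were -0.28 for Areg and -0.09 for Ereg in sheets, and -0.13 and -0.21 in monolayers, less than the largest difference of a bacterial control probe set, 0.51 in sheets and 0.35 in monolayers.

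Nrg1, which encodes the neuregulins of ErbB3 and ErbB4, was the ligand with the smallest spread over the arrays. As the mean of 8 probe sets it had 0.03 in L6-HGF sheets and 0.09 in L6-WT sheets, and -0.05 in L6-HGF monolayers and -0.05 in L6-WT monolayers. A mean over many probe sets has less spread than a single one, and 5 of the 8 Nrg1 probe sets were above 0 and 3 below 0 for L6-HGF minus L6-WT in monolayers. In sheets that difference was above 0 for 3 and below 0 for 5 of them, with a range of -0.36 to 0.21. The probe sets were designed on several Nrg1 transcripts, and no probe set differed by more than 1.5-fold in any of the 4 comparisons.

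Egfr was read by 3 probe sets, whose mean was -0.09 in L6-HGF sheets and 0.22 in L6-WT sheets, and 0.14 in L6-HGF monolayers and -0.02 in L6-WT monolayers. The probe sets differed in their patterns. The L6-HGF minus L6-WT difference in sheets was -0.67 with 1381145_at, -0.27 with 1385413_at and 0.01 with 1370830_at. In monolayers it was -0.02, 0.16 and 0.33 in the same order. As the mean, the difference was -0.31 in sheets and 0.16 in monolayers.

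The neuregulin receptor gene Erbb3 had -0.11 in L6-HGF sheets and 0.31 in L6-WT sheets, and 0.02 in L6-HGF monolayers and -0.02 in L6-WT monolayers. The L6-WT sheet was the high culture, as it was for Btc and for the mean of Egfr. On the Egfr probe set 1370830_at, however, the L6-WT sheet was the lowest culture, at -0.04. Erbb3 was 1.34-fold lower in the L6-HGF sheet than in the L6-WT sheet. This difference, -0.42 (log2), was smaller than the largest of a bacterial control probe set between the sheets, 0.51. Erbb2 had -0.13 in L6-HGF sheets and -0.16 in L6-WT sheets, and 0.13 in L6-HGF monolayers and 0.22 in L6-WT monolayers. Both sheets were below both monolayers, as with Hbegf. The limma sheet effect on Erbb2 was -0.32 ± 0.10 (SE), with an unadjusted limma p of 0.0357 and an adjusted p of 0.180.

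Errfi1 encodes a feedback inhibitor that binds the kinase domain of EGFR and ErbB2. It had 0.04 in L6-HGF sheets and -0.04 in L6-WT sheets, and 0.07 in L6-HGF monolayers and -0.58 in L6-WT monolayers, from 1 probe set. The L6-WT monolayer was the low culture, and the other cultures lay between -0.04 and 0.07. Errfi1 was 1.57-fold higher in the L6-HGF monolayer than in the L6-WT monolayer (0.65 on the log2 scale), which ranked 255 of 14217 genes by size. In sheets the difference was 0.08. In L6-WT it was 1.46-fold higher in the sheet than in the monolayer, and in L6-HGF the difference was -0.03.

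**Figure D3:**
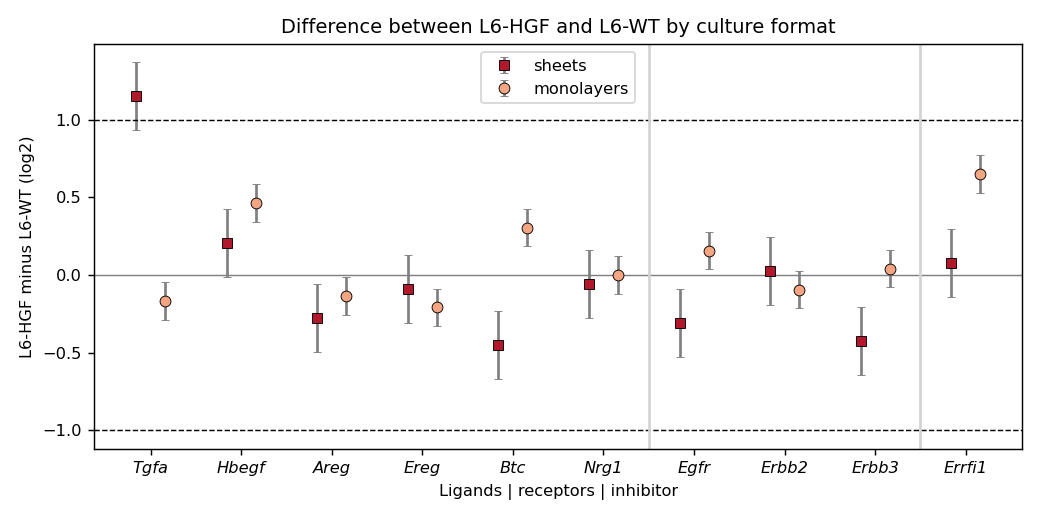
L6-HGF minus L6-WT difference (log2, vertical axis) of each member in sheets (squares) and in monolayers (circles), from 1 array per culture. Grey bars are ± 1 SD of 45 bacterial control probe sets in the same comparison, not a replicate error, and dashed lines mark 2-fold; Tgfa in sheets, at 1.15, is the point beyond them.

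Counted over the 10 members, 1 gene was past 2-fold between L6-HGF and L6-WT sheets and none between the monolayers, where 0.535% of all genes were past 2-fold. Between sheet and monolayer, 1 member was past 2-fold in L6-HGF and none in L6-WT, where the share of all genes was 1.21%. At 1.5-fold, 1 of 10 was called in sheets (Tgfa) and 1 of 10 in monolayers (Errfi1), against 5.78% and 2.51% of all genes. For sheet against monolayer at 1.5-fold, 2 of 10 were called in L6-HGF (Tgfa and Hbegf) and 1 of 10 in L6-WT (Btc), against 11.3% and 7.13%. Each of these counts is 1 or 2 genes, too few to set a share of the members against that of all genes.

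Ligands were set apart from receptors by their medians. The 6 ligands had a median L6-HGF minus L6-WT difference of -0.07 in sheets and -0.07 in monolayers, as compared to -0.02 and 0.0016 over all genes. The 3 receptors had -0.31 in sheets and 0.04 in monolayers. For sheet minus monolayer, the ligand medians were 0.00035 in L6-HGF and -0.02 in L6-WT, and the receptor medians -0.23 and 0.24, beside 0.03 and 0.03 over all genes. Egfr, Erbb2 and Erbb3 were each lower in the L6-HGF sheet than in the L6-HGF monolayer, by between -0.26 and -0.13. In L6-WT, by contrast, 2 were higher and 1 was lower in the sheet. All of these were smaller than the largest difference of a bacterial control probe set, 0.34 in L6-HGF and 0.49 in L6-WT. No test was made of ligands against receptors.

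The limma model was fitted to all 14217 genes. For L6-HGF against L6-WT over both formats, none of the 10 members had an adjusted limma p under 0.05, as was the case for 0% of all genes. At an unadjusted p under 0.05 there was 1 member, Hbegf (0.34 ± 0.12, SE), beside 9.23% of all genes. For sheet against monolayer over both cell lines, none of the members had an adjusted p under 0.05, beside 0.0141% of all genes, and at an unadjusted p under 0.05 there were 2, Hbegf and Erbb2, beside 24.4% of all genes. The residual of this model holds any true difference of the effect between formats, which widens the error of genes such as Tgfa, where the SE was 0.34. The difference of differences, that is the L6-HGF minus L6-WT difference in sheets less that in monolayers, was 1.32 for Tgfa, -0.76 for Btc, -0.57 for Errfi1, -0.47 for Egfr and -0.47 for Erbb3. It leaves no residual and could not be tested.

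Of the genes that act with these members, those for shedding and signal relay stayed within 2-fold in every comparison. Of 10 measured genes of ligand shedding, none passed 1.5-fold between L6-HGF and L6-WT in either format. Adam17, the main protease that releases Tgfa and Areg products, had a difference of 0.17 in sheets and 0.06 in monolayers, and Adam10 had 0.12 and 0.10. Adam19 differed most of this list, with 0.49 and 0.51. In monolayers this was past the largest difference of a bacterial control probe set, 0.35. Rhbdf2, which encodes a rhomboid pseudoprotease that brings ADAM17 to the cell surface, had 0.38 and 0.12. The median over the shedding genes was 0.15 in sheets and 0.02 in monolayers. Of 16 measured relay genes, Map2k1, which encodes the MAPK kinase MEK1, was 0.65 higher and Ptpn11, which encodes the phosphatase SHP2, 0.64 higher (log2) in the L6-HGF sheet than in the L6-WT sheet. The relay list had a median of 0.09 in sheets and 0.07 in monolayers. The receptor Erbb4 and the ligands Egf, Nrg2 and Nrg4 were also measured, and among them Erbb4 differed most, with 0.46 between L6-HGF and L6-WT sheets and -0.08 between the monolayers. Erbb4 had a sheet minus monolayer difference of 0.68 in L6-HGF and 0.14 in L6-WT, so in L6-HGF it lay on the other side of 0 from Egfr, Erbb2 and Erbb3.

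Of 16 measured genes of receptor turnover and feedback, none passed 2-fold between the sheets, and 1 was lower by over 2-fold in the L6-HGF monolayer than in the L6-WT monolayer, beside 0.535% of all genes in either direction. This was Spry1, which encodes an inhibitor of receptor tyrosine kinase signalling, with -0.79 in sheets and -1.47 in monolayers. Lrig1, which encodes a membrane protein that promotes loss of ErbB receptors, had 0.05 and -0.49. Cbl, which encodes a ubiquitin ligase for EGFR, had 0.40 and 0.29. Socs3 had -0.73 and -0.07, and Lrig3 had -0.57 and -0.32. Spry1 and Socs3 were the 2 genes of the list past 1.5-fold between the sheets, beside 5.78% of all genes. Of the 16 genes, 12 were above 0 there. The list had a median of 0.14 in sheets and -0.03 in monolayers.

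Of 18 genes that respond to growth factors through MAPK and related pathways, 6 were lower and 0 higher by over 2-fold in the L6-HGF sheet than in the L6-WT sheet, where 1.44% of all genes were past 2-fold in either direction. The median was -0.50 in sheets and -0.06 in monolayers, where none passed 2-fold. The transcription factor gene Egr1 had -2.58 in L6-HGF sheets and -0.26 in L6-WT sheets, and 0.26 in L6-HGF monolayers and 0.48 in L6-WT monolayers. Dusp6, which encodes a phosphatase of ERK, had -1.20 and -0.13 in L6-HGF and L6-WT sheets, and 0.24 and 0.17 in L6-HGF and L6-WT monolayers. Egr1 and Dusp6 were thus low in the L6-HGF sheet, whereas Myc and Dusp5 were highest there, at 0.68 and 0.50. A link of these genes to Tgfa was not tested. Fos and Junb instead were high in the L6-WT sheet, at 2.41 and 1.37, as compared to 0.10 and 0.08 in the L6-HGF sheet. Etv1 and Ier2 were the other genes past 2-fold, with differences of -1.19 and -1.01. For sheet against monolayer, 3 genes were lower by over 2-fold in L6-HGF, namely Egr1 (-2.84), Dusp6 (-1.44) and Phlda1 (-1.24), and 3 were higher in L6-WT, namely Fos (2.46), Junb (1.56) and Dusp1 (1.38), beside 3.75% and 1.21% of all genes past 2-fold in either direction. On the other side between the sheets, Myc and Dusp5 had differences of 0.88 and 0.88 between the L6-HGF and the L6-WT sheet. The 2 probe sets of Fos disagreed, with -4.78 and 0.18 between the sheets, so its mean is uncertain. That several genes of this list differ in these arrays was known when it was drawn up.

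**Figure D4:**
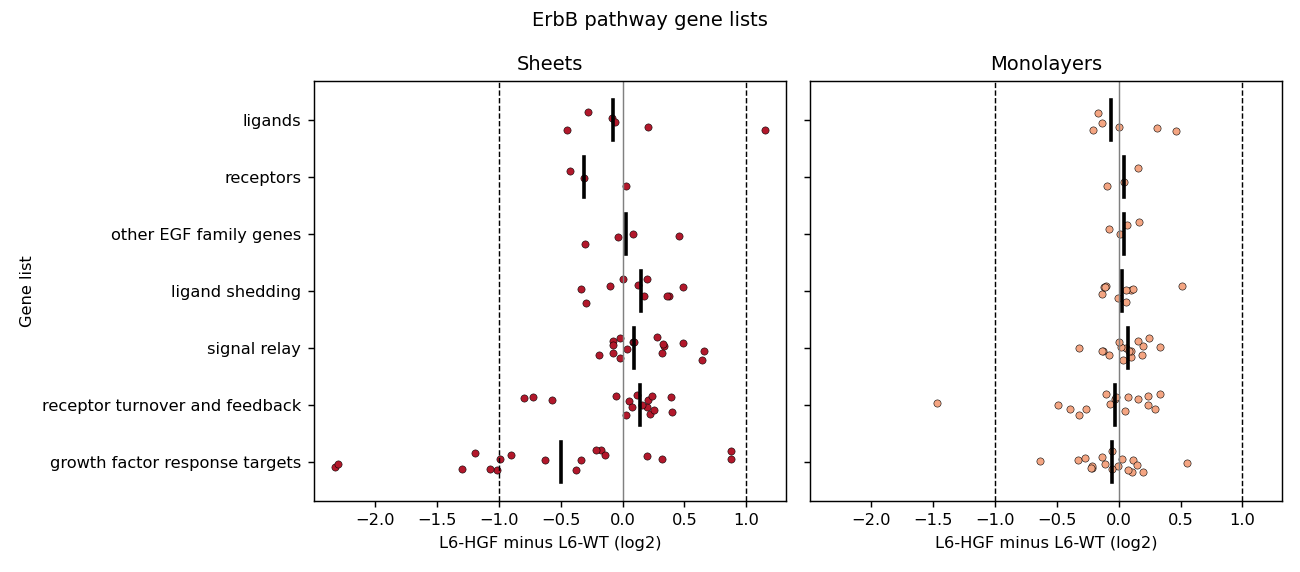
L6-HGF minus L6-WT difference (log2, horizontal axis) of the genes of each list in sheets (left) and monolayers (right), 1 point per gene, spread vertically for legibility, where the bar is the median and the dashed lines are 2-fold. Ligands, receptors, shedding and relay genes all lie within 2-fold except Tgfa in sheets, whereas the growth factor response targets have a median of -0.50 in sheets and -0.06 in monolayers.

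The 250 bases before the start site of the 4 members past 1.5-fold in any comparison are printed to show the DNA next to the genes whose values differed most. They were taken from the RefSeq table on build GRCr8, which holds such a window for 7 of the 10 members, and run 5′ to 3′ on the strand of the gene. Tgfa lies on the plus strand (chr4:120175469-120175718), Hbegf on the minus strand (chr18:28390221-28390470), Btc on the plus strand (chr14:16992418-16992667) and Errfi1 on the plus strand (chr5:166606591-166606840). Capitals mark matches, on either strand, to ACGTG, the core of the low-oxygen response element, to TGANTCA, an AP-1 site, or to GGGCGG, a GC box.
Tgfa: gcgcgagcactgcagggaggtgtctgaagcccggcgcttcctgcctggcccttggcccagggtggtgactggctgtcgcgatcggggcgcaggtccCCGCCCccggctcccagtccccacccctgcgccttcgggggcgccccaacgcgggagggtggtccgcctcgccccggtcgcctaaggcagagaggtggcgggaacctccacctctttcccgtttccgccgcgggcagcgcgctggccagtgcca
Hbegf: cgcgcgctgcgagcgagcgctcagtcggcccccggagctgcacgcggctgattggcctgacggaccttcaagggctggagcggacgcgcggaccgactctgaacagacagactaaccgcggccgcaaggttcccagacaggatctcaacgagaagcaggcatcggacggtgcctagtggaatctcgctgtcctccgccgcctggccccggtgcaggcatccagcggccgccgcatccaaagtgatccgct
Btc: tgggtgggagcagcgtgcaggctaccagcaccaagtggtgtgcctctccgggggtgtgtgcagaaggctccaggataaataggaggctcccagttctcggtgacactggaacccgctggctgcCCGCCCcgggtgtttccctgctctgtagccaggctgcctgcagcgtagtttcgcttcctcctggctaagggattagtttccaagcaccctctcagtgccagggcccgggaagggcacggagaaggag
Errfi1: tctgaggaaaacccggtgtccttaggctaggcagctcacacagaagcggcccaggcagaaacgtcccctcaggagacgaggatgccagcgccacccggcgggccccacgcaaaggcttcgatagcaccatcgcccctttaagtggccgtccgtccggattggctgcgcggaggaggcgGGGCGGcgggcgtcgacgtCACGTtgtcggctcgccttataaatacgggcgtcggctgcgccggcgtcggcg

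The Tgfa window held 1 GC box, whose first base was at position -154 from the start site, and neither of the other motifs, and 74.4% of its bases were G or C. The Errfi1 window held 1 GC box and 1 low-oxygen core, with first bases at positions -72 and -53. That of Btc held 1 GC box and that of Hbegf none of the 3 motifs. Of 33469 windows of this length, 30.5% held a GC box, 16.6% a low-oxygen core and 6.34% an AP-1 site. These are matches of letters and not sites of binding.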

How the data were processed

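Affymetrix GeneChip arrays of total RNA from 4 L6 cultures were used, 1 array per culture. The authors normalized them to median with RMA (its version is not given in the sources used here) and deposited them on a log2 scale, with the median of each probe set over the 4 arrays at 0. The intensity behind a value, and with it the signal over background, is not known. After 57 control probe sets were left out, 31042 probe sets remained, of which 20826 with 1 gene symbol gave 14217 genes, each the mean of its probe sets. Differences were taken between single arrays and called past 2-fold, as in the paper, without a test. A limma model (version 3.58.1, R 4.3.3) with terms for cells and format, 1 residual degree of freedom, was fitted across all genes. Variances were moderated across genes, and p-values had Benjamini-Hochberg adjustment. It was tested on simulated data. Python 3.11.15, pandas 2.3.3, numpy 2.4.6 and matplotlib 3.10.9 did the rest. Alternatives were quantile normalization, medians of probe sets, probe sets without the suffixes _x_at, _s_at and _a_at, arrays centred on their own median, a 1.5-fold threshold, probe sets as the unit of limma, and limma with 1 term. The text names all 10 members, the other pathway genes past 2-fold and, for members past 2-fold, the 3 nearest genes by Euclidean distance. Other genes within 2-fold were named after their values were seen. The members, gene lists and motifs were chosen with earlier results of these data known. Listed genes without a probe set of their own symbol were not analysed here.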

Additional observations from a re-analysis of the deposited data

Results flagged for a closer look

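The L6-HGF minus L6-WT difference had opposite signs in sheets and in monolayers for 3 members, with sizes above the SD of the bacterial control probe sets (0.22 in sheets and 0.12 in monolayers). Tgfa had 1.15 in sheets and -0.17 in monolayers, a difference of 1.32 (log2). Its monolayer value was -0.05 with 1381449_s_at, within the SD there, and -0.28 with 1387450_at. Btc had -0.45 and 0.31, a difference of -0.76. Egfr had -0.31 and 0.16, a difference of -0.47, although its 3 probe sets ranged from -0.67 to 0.01 in sheets. With the median of its probe sets, the monolayer value of Egfr was 0.06, below that SD, and the control probe sets themselves averaged 0.09 in monolayers. The monolayer values of all 3 genes were smaller than the largest control difference, 0.35, and in sheets those of Btc and Egfr were smaller than the largest there, 0.51. With 1 array per culture none of these differences between formats was tested.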

How the results depend on the processing

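No paired analysis was possible because each condition had 1 array, and leaving out an array would remove a condition. With quantile normalization of the centred values, the count of members past 2-fold was 0 between L6-HGF and L6-WT sheets, where Tgfa had 0.90 (log2), and 0 between sheet and monolayer in L6-HGF, where Tgfa had 0.99. Without probe sets ending in _x_at, _s_at or _a_at it was 0 between the sheets, since Tgfa then rested on 1387450_at alone. At 1.5-fold the count was 1 in monolayers, 2 for sheet against monolayer in L6-HGF and 1 in L6-WT. No member past 2-fold changed sign under any of these alternatives, and no member had an adjusted limma p under 0.05 in any limma fit, with a smallest value of 0.458 for cell line and 0.0722 for format, both with quantile normalization. Quantile normalization gives all arrays the same distribution of centred values. Over all genes, 94 then passed 2-fold between the sheets, as compared to 205 without it. With it, limma called 586 genes for format at an adjusted p under 0.05, as compared to 2, and 2 for cell line, as compared to 0. With format as the sole term, the 2 genes called for format were lost. With cell line as the sole term, 386 genes had an unadjusted limma p under 0.05 for cell line, as compared to 1312. Causes were not tested. Without signal levels, differences of dim probe sets cannot be separated from noise.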
